A study of Mus musculus with 12 samples.

Results

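The genes described here are 38 mouse genes that fold, oxidise, sort or sense proteins in the endoplasmic reticulum (ER). They comprise 12 chaperones, co-chaperones and other folding factors, 8 disulfide enzymes, 4 genes of the unfolded protein response (UPR; the sensors Ern1, Atf6 and Atf6b, and Xbp1), 11 genes of ER-associated degradation (ERAD) and 3 genes of translocation into the ER. They were listed by symbol and matched by Ensembl ID, and all 38 were found among the 48709 gene IDs of the deposited count tables. RNA sequencing counts came from embryonic fibroblasts of C57BL/6 mice in 4 groups of 3 samples. Cells labelled WT and isogenic cells labelled TAZKo, described in the series as without tafazzin, were kept in normoxia or held for 24 hours of hypoxia in a workstation, all in DMEM with fetal bovine serum. Tafazzin remodels the mitochondrial lipid cardiolipin, and the series asks how its loss alters the response to low oxygen. The oxygen level and the way in which the TAZKo cells were made are not given in the sources used here. Nothing says that samples came from separate cultures, so p-values measure only the spread between these samples, which may be technical.

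Proteins that enter the secretory route are folded in the ER by chaperones such as BiP (the product of Hspa5) and by the lectin chaperones calreticulin and calnexin, while protein disulfide isomerases pair their cysteines and ERO1 oxidases pass the electrons on to oxygen. Chains that fail to fold are recognised, drawn back through the membrane and ubiquitinated by the ERAD machinery. When misfolded protein accumulates, ATF6 and the IRE1 enzyme (Ern1), which splices Xbp1 mRNA, raise the transcription of chaperone and ERAD genes, and another sensor, PERK (Eif2ak3), acts through the transcription factor ATF4. Fibroblasts secrete collagen and other matrix proteins and depend on this system, and some of its genes, Ero1l among them, are known to be induced by hypoxia.

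Taz, which encodes tafazzin, was not reduced in the libraries labelled TAZKo. In normoxia it stood at 34.6 ± 2.92 CPM (counts relative to the library total, scaled by TMM; SD, n = 3) under the WT label and 42.2 ± 3.18 under the TAZKo label, and after hypoxia at 25.1 ± 1.49 and 33.8 ± 1.15. Genotype is therefore given throughout as the label of a library. Total counts ran from 21039451 to 31204510 per sample, and 3 counts, taken as the floor, were worth 0.0927 to 0.15 CPM. WT normoxia sample 1 stood apart: its genes lay a median of 0.236 log2 units from the mean of the other samples of its group, against 0.073 to 0.149 in the other 11 samples. Of 13 fibroblast markers, 2 (Lum and Thy1) stayed under 1 CPM in every sample and Col1a2 reached only 1.51 to 5.93 CPM. Under 1 CPM in every sample were 5 of 6 immune, 4 of 6 endothelial, 4 of 6 neural, 4 of 6 muscle and 3 of 6 epithelial markers, while the keratins Krt14 (98.3 to 279 CPM) and Krt18 (97.3 to 150) were detected. Some of these markers moved with the label. In normoxia the summed epithelial markers stood at 345 to 431 CPM under the WT label and 196 to 211 under the TAZKo label (3 of 3 tested lower, edgeR), the endothelial ones at 18.3 to 21.2 and 5.85 to 7.88 (2 of 3 lower, 1 higher), the neural ones at 36.3 to 42.6 and 26.1 to 31.3 (2 of 3 lower, 1 higher) and the muscle ones at 4.61 to 6.19 and 11.1 to 12.2 (2 of 2 higher). Of 11 tested fibroblast markers 5 were higher and 2 lower, Col1a1 by -1.3 in log2. After hypoxia the epithelial sums were 315 to 345 and 255 to 258 CPM (1 of 3 lower). The endothelial ones were 14.6 to 20.6 and 4.33 to 5.5 (2 of 3 lower) and the neural ones 45.8 to 63.2 and 37.3 to 39.2 (2 of 3 lower). The muscle ones were 10.7 to 12.8 and 17.3 to 18.2 (2 of 2 higher). Of the 11 fibroblast markers 4 were then higher and 2 lower. The sums rest mainly on few markers: Krt14 and Krt18 (epithelial), Tek and Kdr (endothelial), Tubb3 (neural), and Des and Tnnt2 (muscle). Epcam, Cdh1, Krt5, Pecam1, Cdh5, Tie1 and Vwf were among those that stayed under 1 CPM. In such bulk samples, fewer cells of a type and less RNA per cell cannot be told apart.

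As a set, the 38 genes took 12552 ± 361 CPM (SD, n = 3) under the WT label and 11104 ± 84.3 under the TAZKo label in normoxia, and 14059 ± 236 and 12411 ± 153 after hypoxia. In each condition every library labelled TAZKo lay below every library labelled WT. The higher totals after hypoxia came mainly from the disulfide enzymes, P4hb above all. Under the WT label the disulfide enzymes summed to 4081 CPM in normoxia and 5714 after hypoxia, and the folding factors to 6350 and 6100. Per kilobase of annotated exon, the levels in WT normoxia were led by P4hb (610 CPM per kb), Calr (555), Hspa5 (394) and Pdia3 (360), all products that act directly on folding chains. Sensors sat far lower on that scale, with Atf6b at 39.6, Atf6 at 12.5 and Ern1 at 11.7 CPM per kb, and Ero1l stood at 7.24 and its paralog Ero1lb at 1.3. Derl3 was nearly silent, at 0.132 to 0.588 CPM in the 12 samples. It did not pass the filter on low counts, so 37 of the 38 genes were tested. In the fit without that filter it missed the threshold in each comparison (edgeR adjusted p of 0.339 or more).

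**Figure D1:**
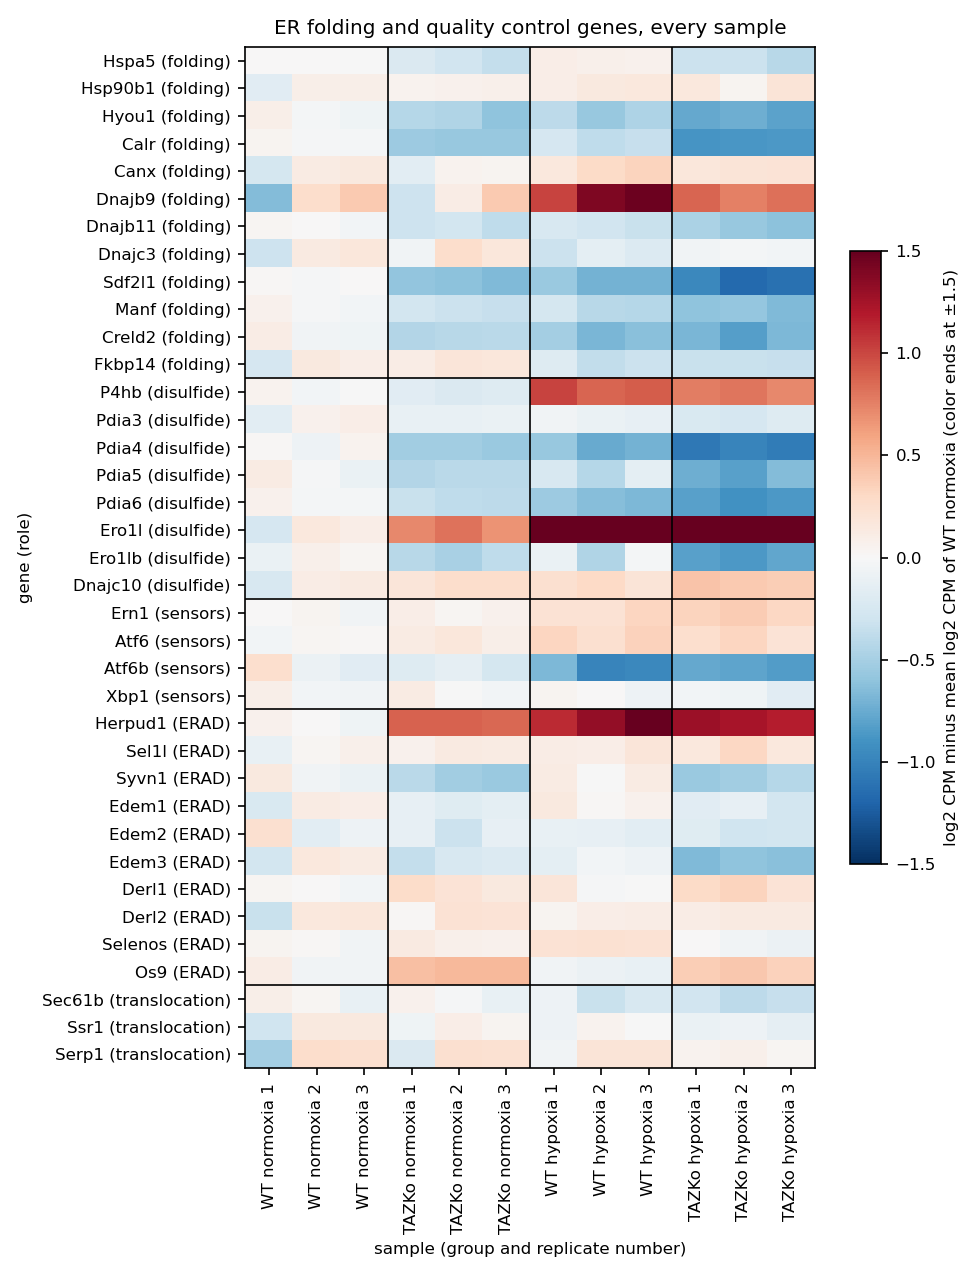
Level of each of the 37 tested genes (rows, grouped by role) in each of the 12 samples (columns, grouped by label), as log2 CPM minus the mean log2 CPM of WT normoxia, with the color scale ending at 1.5 in either direction. Rows such as Calr, Sdf2l1 and Pdia4 are highest in the WT normoxia columns and lowest in the TAZKo hypoxia columns. Ero1l, Herpud1, P4hb and Dnajb9 are red in hypoxia.

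In normoxia the libraries labelled TAZKo held less mRNA of the main BiP-system chaperones and disulfide isomerases and more of Herpud1, Ero1l, Os9 and Derl1. Of the 37 tested genes, 18 passed the test (edgeR quasi-likelihood, Benjamini-Hochberg adjusted p under 0.05 over 14408 genes), 4 higher and 14 lower, where 30.4% of all tested genes passed, 15.6% higher and 14.9% lower. By role, 7 of 12 folding factors fell and none rose (none also at an unadjusted edgeR p under 0.05), 5 of 8 disulfide enzymes fell and 1 rose, and 2 of 10 ERAD genes fell and 3 rose. None of the 4 UPR genes and none of the 3 translocation genes passed under edgeR or DESeq2, and at an unadjusted edgeR p under 0.05 there was 1, Atf6. Atf6b passed in the edgeR fits without a filter on low counts (-0.24, adjusted p = 0.029) and without WT normoxia sample 3 (-0.33, adjusted p = 0.0331). The median log2 difference was -0.3 over the folding factors, -0.28 over the disulfide enzymes and 0.1 over the ERAD genes, and it was -0.03 over the 37 genes against 0.01 over all genes. The other cell-type markers named above moved with the same labels, and their part in these differences was not tested.

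Among the folding factors, Hspa5 (chromosome 2, 34771970-34777547, GRCm38), which encodes BiP, gave 1673, 1668 and 1656 CPM in WT normoxia and 1430, 1362 and 1295 in TAZKo normoxia. The groups did not overlap, and the log2 difference was -0.29 (SE 0.0524, edgeR adjusted p = 0.000875). Calr (chromosome 8, 84841850-84846934) gave 1647, 1576 and 1568 CPM against 1097, 1076 and 1079. All 3 libraries labelled TAZKo were thus well below the WT range, with a difference of -0.56 in log2 (SE 0.0501, edgeR adjusted p = 2.09e-06). Sdf2l1, a partner of BiP and ERdj3 (Dnajb11), gave 61.8, 60.1 and 61 CPM against 40.4, 39.8 and 38.5. This was the largest fall among the folding factors, -0.62 (SE 0.0671, edgeR adjusted p = 1.12e-05). Hyou1, a nucleotide exchange factor for BiP, fell by 0.49 on the log2 scale, Creld2 by 0.41, Dnajb11 by 0.32 and Manf, an ER-stress-induced secreted factor, by 0.31.

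The fall did not reach every chaperone. Hsp90b1, the ER member of the HSP90 family, stood at 969 to 1162 CPM in WT normoxia and 1136 to 1149 in TAZKo normoxia, a log2 difference of 0.06 (95% interval -0.09 to 0.21, edgeR adjusted p = 0.555). Its WT range took in all 3 libraries labelled TAZKo. Canx (-0.03), Dnajb9 (0.03), Dnajc3 (0.12) and Fkbp14 (0.14) also missed the threshold of the edgeR test.

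Among the disulfide enzymes, Pdia4 (chromosome 6, 47796141-47813430) gave 411, 386 and 422 CPM in WT normoxia and 282, 283 and 277 in TAZKo normoxia, without overlap. Its log2 difference was -0.53 (SE 0.0597, edgeR adjusted p = 1.62e-05). Pdia5 fell by 0.42, Pdia6 by 0.37 and P4hb, the isomerase that also serves as a subunit of collagen prolyl hydroxylase, by 0.2. Pdia3, the isomerase that works with calnexin and calreticulin, missed the threshold at -0.11 (95% interval -0.24 to 0.03), and without WT normoxia sample 1 it passed at -0.18 (edgeR adjusted p = 0.00499). The ERO1 oxidases parted. Ero1l gave 31.9, 42.3 and 40.6 CPM against 62.7, 66.8 and 60.8, and rose by 0.73 (SE 0.0933, edgeR adjusted p = 5.42e-05). Ero1lb gave 8.05, 9.08 and 8.84 CPM against 6.48, 6.15 and 6.65, and fell by 0.43 (SE 0.109, edgeR adjusted p = 0.00907). Every library labelled TAZKo was above the WT range for Ero1l and below it for Ero1lb. Per kilobase, the ratio of Ero1l to Ero1lb was 5.55 ± 0.483 (SD, n = 3) in WT normoxia and 12.5 ± 1.12 in TAZKo normoxia.

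ERAD genes moved in both directions. Herpud1 (chromosome 8, 94386438-94395377), a membrane protein that organises the ubiquitin ligase complex of ERAD, gave 70.9, 67.6 and 64.4 CPM in WT normoxia and 125, 125 and 123 in TAZKo normoxia. It rose by 0.88 (SE 0.08, edgeR adjusted p = 2.45e-06), the largest difference of any of the 37 genes in this comparison. Syvn1, the ubiquitin ligase itself, gave 135, 117 and 114 CPM against 91.7, 85 and 82.7. It fell by 0.49 (SE 0.0747, edgeR adjusted p = 0.000223), so ligase and organiser moved in opposite directions. Os9, a lectin that hands glycoproteins to the ligase, gave 101, 90.5 and 90.5 CPM against 128, 131 and 131 and rose by 0.47 (SE 0.0561, edgeR adjusted p = 2.77e-05). Edem3, of the mannosidase-like EDEM family, fell by 0.28 and Derl1, a derlin of the membrane channel, rose by 0.21. Both of these calls were lost in several other fits, mostly ones that left out a sample. The edgeR adjusted p reached 0.127 for Edem3 and 0.147 for Derl1. For Derl1 these included fits without a hypoxia sample, in which the median of all genes shifted by -0.034.

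Whole chromosomes also differed between the labels, among them some that carry these genes. In normoxia the median log2 difference of a chromosome's tested genes was taken relative to the median of all genes. It was 0.3 on chromosome 10, where Os9 and Hsp90b1 lie, and -0.28 on chromosome 19, where Syvn1 lies. On chromosome 8, which carries Calr and Herpud1, it was -0.17. The part of these shifts in the results for those genes was not tested.

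**Figure D2:**
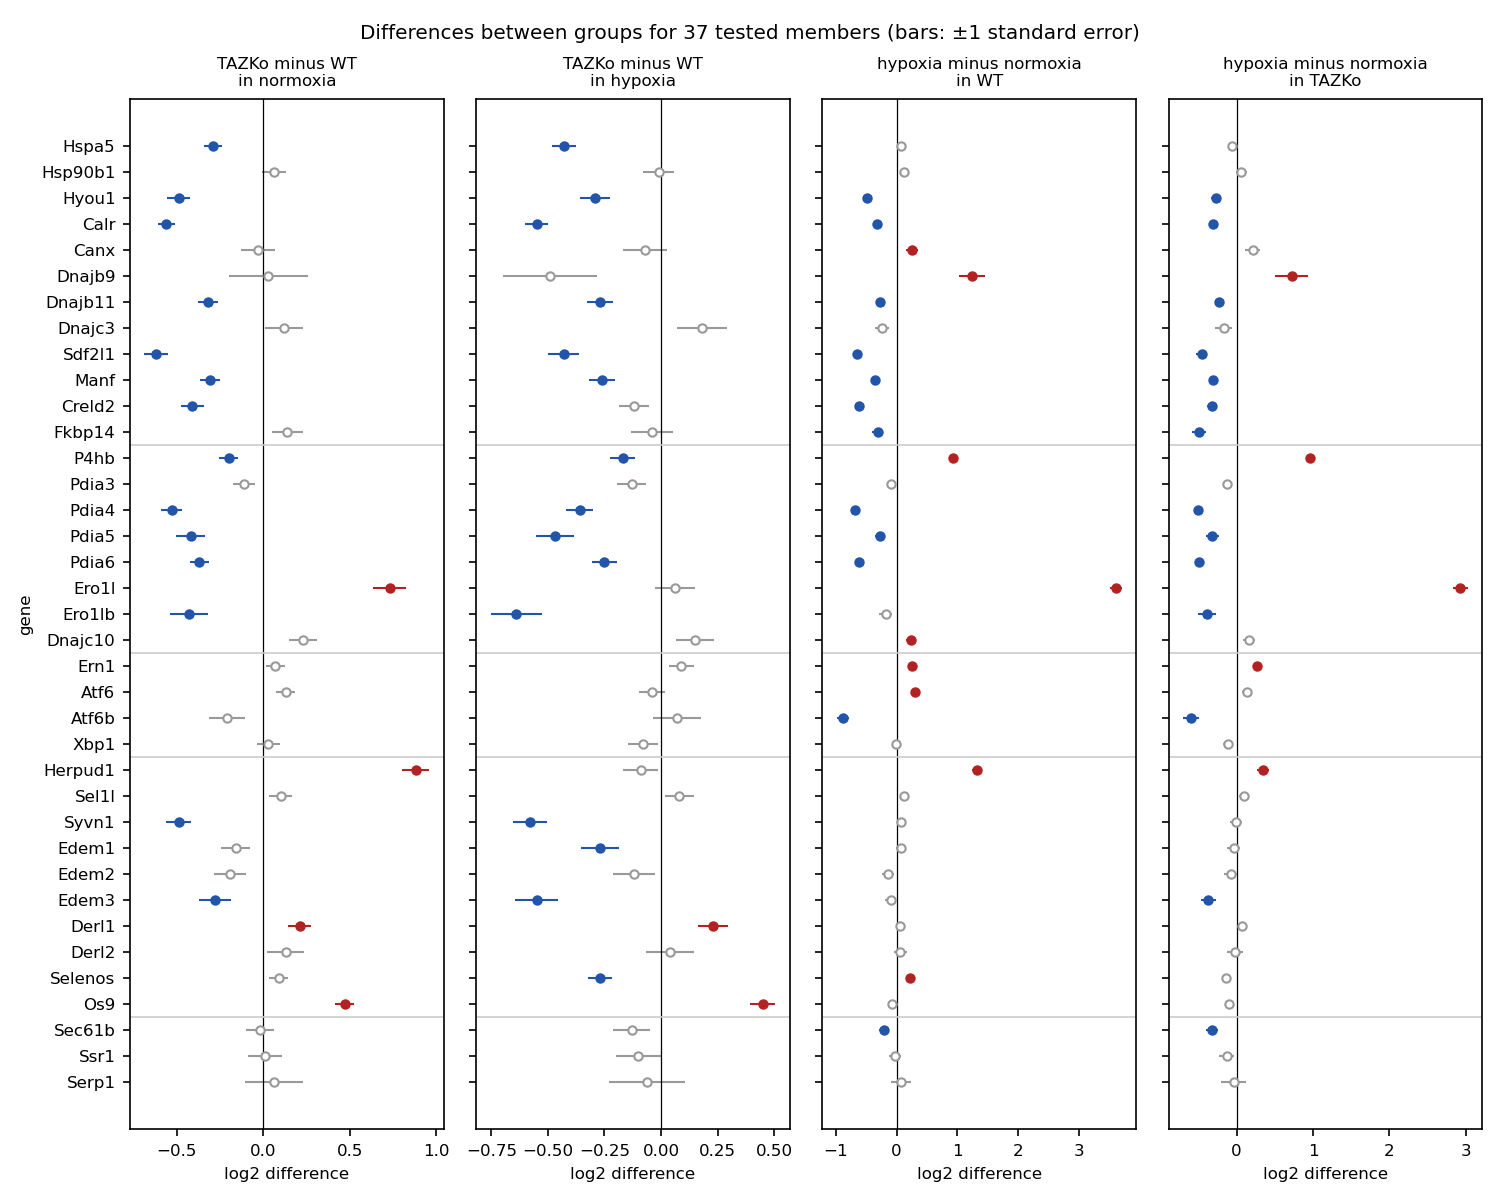
Log2 difference (horizontal axis, point) with 1 standard error (bar) for the 37 tested genes (vertical axis, ordered by role) in 4 comparisons, each panel with its own scale. Filled points passed the edgeR test, red for higher and blue for lower, and open points missed it. The folding factors and disulfide enzymes hold most of the blue points, and the 3 translocation genes at the bottom hold 1 in each hypoxia panel.

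In hypoxia the genotype difference had the same outline, without the 2 largest rises. Of the 37 genes, 17 passed (edgeR), 2 higher and 15 lower, where 32.8% of all tested genes passed, 15.8% higher and 16.9% lower. The genes lower under the TAZKo label in both conditions numbered 13: Hspa5, Hyou1, Calr, Dnajb11, Sdf2l1, Manf, P4hb, Pdia4, Pdia5, Pdia6, Ero1lb, Syvn1 and Edem3. Os9 and Derl1 were higher in both. By role, 6 of 12 folding factors, 5 of 8 disulfide enzymes and 4 of 10 ERAD genes fell and 2 ERAD genes rose, while no UPR or translocation gene passed under edgeR, DESeq2 or an unadjusted edgeR p under 0.05. The median log2 difference of the 37 genes was -0.12, against -0.01 over all genes.

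After hypoxia, Hspa5 gave 1788, 1763 and 1735 CPM in the libraries labelled WT and 1334, 1337 and 1245 in those labelled TAZKo. These did not overlap, and the log2 difference was -0.43 (SE 0.0524, edgeR adjusted p = 3.34e-05). Calr gave 1341, 1226 and 1252 CPM against 866, 869 and 880 and differed by -0.55 (SE 0.0502, edgeR adjusted p = 2.8e-06). Ero1lb differed by -0.64 (SE 0.114, edgeR adjusted p = 0.000807), Syvn1 by -0.58 and Edem3 by -0.55. Herpud1 (-0.09, 95% interval -0.26 to 0.08) and Ero1l (0.06, 95% interval -0.13 to 0.25), both higher under the TAZKo label in normoxia, missed the threshold in hypoxia. Creld2 also missed it, at -0.12 (edgeR adjusted p = 0.201).

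Selenos, a selenoprotein that ties the extraction motor VCP to the derlins, was lower under the TAZKo label after hypoxia (60.3, 60.9 and 60.3 CPM against 52.2, 49.9 and 48.7, edgeR adjusted p = 0.00207 for a log2 difference of -0.27, SE 0.055). The groups did not overlap. Edem1 (-0.27) and P4hb (-0.17) also fell, and their calls and that of Derl1 (0.23) were lost in some of the other fits, with edgeR adjusted p up to 0.0895, 0.105 and 0.0756. Leaving out WT normoxia sample 1, which lends its spread to the shared model, raised the count from 17 to 21. The count of all genes rose with it, from 4723 to 6149. A block for the replicate number made Dnajb9 pass (-0.48, edgeR adjusted p = 0.0184). Dnajb9 also passed without a filter on low counts (edgeR adjusted p = 7.49e-05), with only the 6 samples compared (0.00578) and without WT normoxia sample 1 (0.00825).

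**Figure D3:**
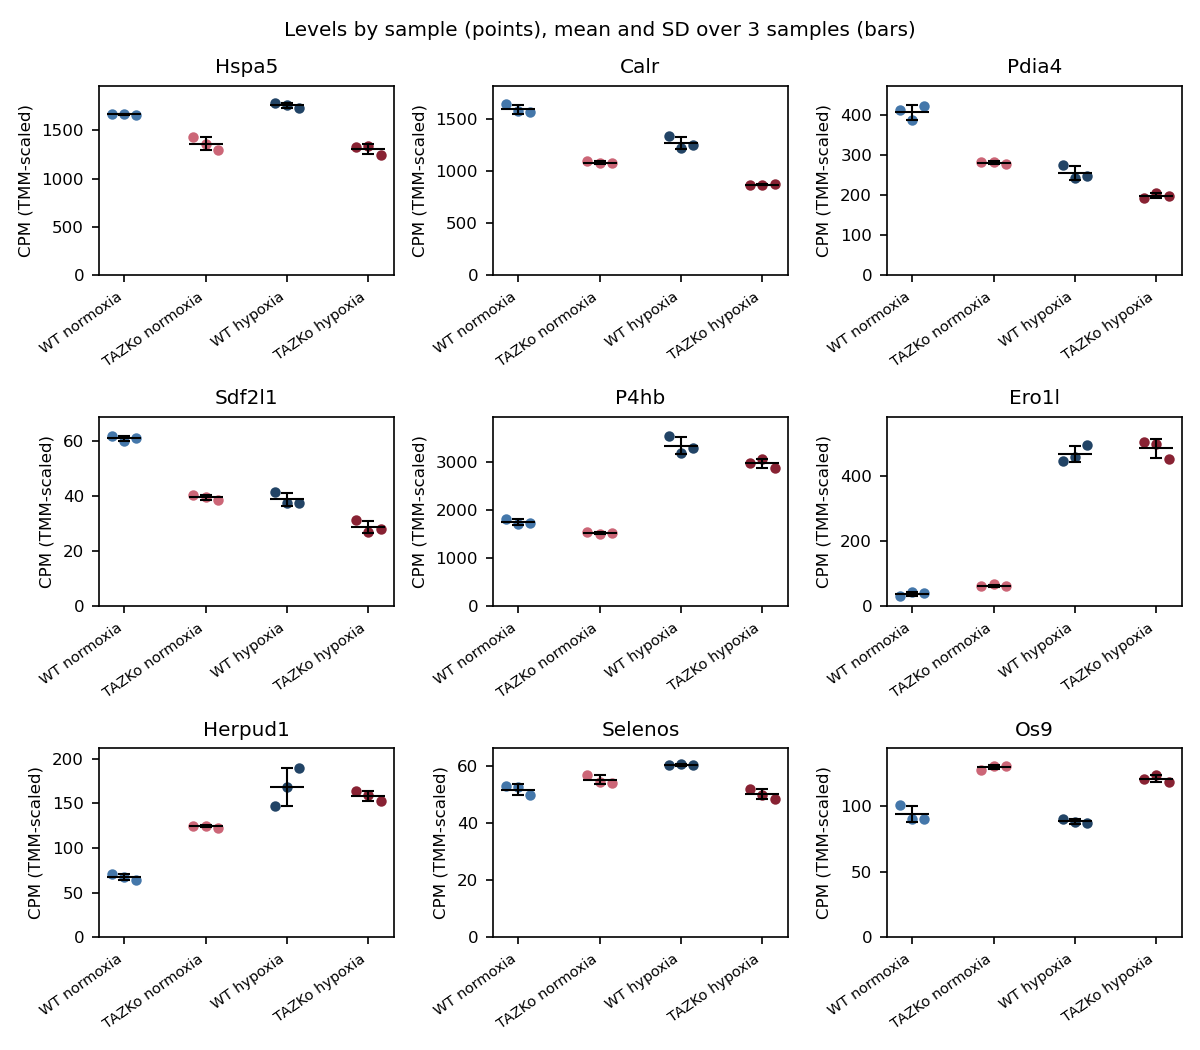
Level of 9 genes in every sample, in CPM scaled by TMM on axes that start at 0 (points, 3 per group), with the group mean (horizontal mark) and SD (bar). The libraries labelled TAZKo lie below those labelled WT for Hspa5, Calr, Pdia4, Sdf2l1 and P4hb in both conditions, and hypoxia samples lie above normoxia samples for P4hb, Ero1l and Herpud1.

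After 24 hours of hypoxia the libraries labelled WT held more mRNA of the ER oxidation genes Ero1l and P4hb and of Herpud1 and Dnajb9, and less of Calr, of several BiP partners and of Pdia4, Pdia5 and Pdia6. Of the 37 genes, 21 passed (edgeR), 9 higher and 12 lower, where 51% of all tested genes passed, 26% higher and 25% lower. By role, 7 of 12 folding factors fell and 2 rose, 3 of 8 disulfide enzymes fell and 3 rose, 1 of 4 UPR genes fell and 2 rose, 2 of 10 ERAD genes rose, and 1 of 3 translocation genes fell. Under library size alone as the scaling, the split was 6 higher and 17 lower, with the median of all genes shifted by -0.106. Over all genes it went from 3750 higher and 3605 lower to 2966 and 4817. Without a filter on low counts the split was 5 higher and 15 lower, and over all genes 3526 and 4390. The median of the 37 genes was -0.02, against 0.01 over all genes.

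Ero1l (chromosome 14, 45283087-45318771) rose from 31.9, 42.3 and 40.6 CPM in WT normoxia to 447, 457 and 494 in WT hypoxia. The log2 difference of 3.6 (SE 0.0996, edgeR adjusted p = 7.86e-12) was the largest of all 37 genes in any comparison. P4hb (chromosome 11, 120560298-120573253), the isomerase that ERO1 reoxidises, rose from 1807, 1699 and 1731 CPM to 3535, 3185 and 3287, by 0.93 (SE 0.0541, edgeR adjusted p = 1.1e-08). Neither gene's groups overlapped. The other isomerases went the other way: Pdia4 fell to 274, 241 and 248 CPM, by 0.68 (edgeR adjusted p = 7.13e-07), Pdia6 by 0.62 (edgeR adjusted p = 7.83e-07) and Pdia5 by 0.27, while Pdia3 missed the threshold (-0.09).

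Herpud1 rose to 147, 169 and 190 CPM, by 1.32 (SE 0.0805, edgeR adjusted p = 1.9e-08), and Dnajb9, a co-chaperone that restrains IRE1, rose from 6.81, 12.8 and 14 CPM to 21.6, 28.2 and 29.6, by 1.24 (SE 0.218, edgeR adjusted p = 0.000338). Hypoxia and normoxia samples of both genes were fully apart. Hspa5 did not pass, at 0.08 (95% interval -0.03 to 0.19), and Hsp90b1 stood at 0.13 (95% interval -0.02 to 0.28). Of the other folding factors, Sdf2l1 fell by 0.65, Creld2 by 0.61, Hyou1 by 0.48, Manf by 0.36, Calr by 0.33, Fkbp14 (a prolyl isomerase) by 0.31 and Dnajb11 by 0.28. Canx, whose log2 difference was 0.25, passed only narrowly (edgeR adjusted p = 0.045). Its call was lost whichever of the 12 samples was left out, with edgeR adjusted p up to 0.29 over all alternatives. Leaving out a TAZKo sample, which lies outside this comparison, shifted the median of all genes by -0.054 to -0.055. Canx then stood at 0.19.

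Of the sensor genes, Atf6b moved most. Atf6b (chromosome 17, 34647146-34655074), a relative of Atf6, gave 129, 102 and 96.5 CPM in WT normoxia and 67.9, 54.3 and 55.5 in WT hypoxia. Without overlap, it fell by 0.88 (SE 0.105, edgeR adjusted p = 1.16e-05), the largest fall of the 37 genes. Atf6 rose by 0.31 (SE 0.0557, edgeR adjusted p = 0.000432) and Ern1 by 0.25 (SE 0.0547, edgeR adjusted p = 0.00176). Per kilobase, the ratio of Atf6 to Atf6b was 0.322 ± 0.0542 (SD, n = 3) in WT normoxia and 0.727 ± 0.0832 in WT hypoxia, and it was 0.4 ± 0.00737 and 0.665 ± 0.022 in the libraries labelled TAZKo. Xbp1 stayed between 117 and 143 CPM in all 12 samples, and its 95% intervals ran from -0.11 to 0.17 for the genotype in normoxia and from -0.15 to 0.13 for hypoxia in the libraries labelled WT. Counts per gene do not tell spliced from unspliced Xbp1.

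In the libraries labelled TAZKo, hypoxia gave 19 of 37 calls (edgeR), 5 higher and 14 lower, where 43.8% of all tested genes passed, 22.2% higher and 21.6% lower. The folding factors held 7 falls and 1 rise, the disulfide enzymes 4 falls and 2 rises, and the median of the 37 genes was -0.11, against -0.01 over all genes. Higher under both labels were Ero1l, P4hb, Herpud1, Dnajb9 and Ern1, and 12 genes were lower under both, namely Hyou1, Calr, Dnajb11, Sdf2l1, Manf, Creld2, Fkbp14, Pdia4, Pdia5, Pdia6, Atf6b and Sec61b. P4hb rose from 1548, 1499 and 1523 CPM to 2978, 3049 and 2868, by 0.96 (SE 0.0542, edgeR adjusted p = 1.3e-08). That is nearly the rise under the WT label, and the difference between the rises was 0.03 (95% interval -0.14 to 0.19). Atf6b fell by 0.6 (SE 0.105, edgeR adjusted p = 0.000419), Edem3 by 0.37 and Ero1lb by 0.39. Dnajb9 rose from 8.63, 11.5 and 14 CPM to 19.6, 18.1 and 18.9, by 0.72 (edgeR adjusted p = 0.0162), and lost its call in 4 of the fits that left out a sample (edgeR adjusted p up to 0.0888). Without WT normoxia sample 1 the count was 27, while that of all genes went from 6309 to 7678. A block for the replicate number let Canx (0.22, edgeR adjusted p = 0.0138) and Selenos (-0.14, edgeR adjusted p = 0.0414) pass as well. Canx also passed without a filter on low counts (edgeR adjusted p = 0.0347), with only the 6 samples compared (0.00452) and without WT normoxia sample 1 (0.00751). Selenos also passed with upper quartile scaling (edgeR adjusted p = 0.0344), library size alone (0.00506) and only the 6 samples compared (0.0392). It passed as well in most fits that left out a sample.

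Ern1 rose by 0.27 under the TAZKo label (edgeR adjusted p = 0.00131), close to its 0.25 under the WT label, a call lost without a filter on low counts and with only the 6 samples compared (edgeR adjusted p up to 0.113). Dnajc10, a disulfide reductase that works with BiP, rose by 0.24 under the WT label (edgeR adjusted p = 0.0278), a call lost in 9 of the fits that left out a sample and in 4 other alternatives. In the fit over all 12 samples without a block, 9 genes passed in none of the comparisons: Hsp90b1, Dnajc3, Pdia3, Xbp1, Sel1l, Edem2, Derl2, Ssr1 and Serp1. Of these, Dnajc3, a BiP co-chaperone, fell with hypoxia under the WT label once the replicate number was a block (-0.23, edgeR adjusted p = 0.0243). Counting each comparison in each alternative fit, it passed 11 times, Pdia3 9, Edem2 4, Ssr1 3 and Xbp1 1, and Hsp90b1, Sel1l, Derl2 and Serp1 passed 0 times. Sel1l, the partner of the Syvn1 ligase, differed by 0.08 to 0.12 in the 4 comparisons of groups, and Edem2 by -0.19 to -0.07.

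Of the translocation genes, 1 passed a test. Sec61b, a subunit of the channel through which chains enter the ER, fell by 0.21 under the WT label (edgeR adjusted p = 0.0379, and 0.087 without WT normoxia sample 1) and by 0.32 under the TAZKo label (edgeR adjusted p = 0.00501). Ssr1, of the translocon-associated complex, and Serp1, a small protein at the same channel, passed in none of the comparisons over all 12 samples. Without WT normoxia sample 1, Ssr1 fell with hypoxia under the WT label (-0.16, edgeR adjusted p = 0.024) and under the TAZKo label (-0.13, edgeR adjusted p = 0.0363). Serp1 showed a split inside the groups instead: sample 1 gave 186 CPM in WT normoxia, 229 in TAZKo normoxia and, after hypoxia, 256 under the WT label, where the other samples of these groups gave 302 to 319. Its standard error in each comparison of 2 groups was 0.168. Also low in WT normoxia sample 1 were, among others, Canx (661 CPM against 866 and 878), Ssr1 (263 against 361 in both others), Derl2 (49.8 against 70 and 70.5) and Edem3 (78.6 against 106 and 104).

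**Figure D4:**
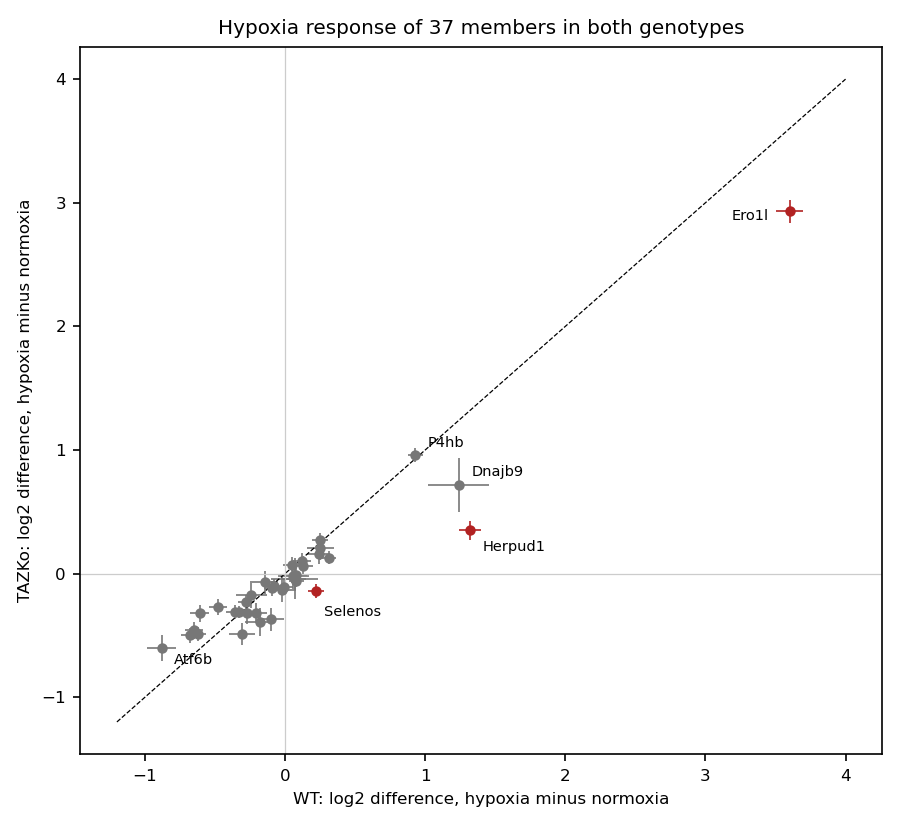
Hypoxia minus normoxia, as a log2 difference, in the libraries labelled WT (horizontal axis) and TAZKo (vertical axis) for 37 genes, with bars of 1 standard error and a dashed line of equal response. The 3 red points (Ero1l, Herpud1 and Selenos) passed the edgeR test of the difference between the responses, and all lie below the line.

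The hypoxia response itself differed between the labels in 3 of the 37 genes (edgeR), each with a lower value under the TAZKo label, where 2.43% of all tested genes passed, 0.722% higher and 1.71% lower. The median over the 37 was -0.05, against -0.02 over all genes. Herpud1 gave 125, 125 and 123 CPM in TAZKo normoxia and 164, 159 and 153 in TAZKo hypoxia. It rose by 0.35 there (SE 0.0786, edgeR adjusted p = 0.00238) against 1.32 under the WT label, a difference of -0.96 (SE 0.112, edgeR adjusted p = 0.000601). Its levels in hypoxia overlapped between the labels, and its levels in normoxia did not. Ero1l rose by 2.93 (SE 0.096) to 504, 499 and 452 CPM, against 3.6 under the WT label, a difference of -0.67 (SE 0.128, edgeR adjusted p = 0.0153). Here too the hypoxia levels overlapped and the normoxia levels were apart. Selenos gave 53.2, 52.6 and 49.8 CPM in WT normoxia and 57.1, 54.5 and 54.3 in TAZKo normoxia, without overlap, but that difference of 0.09 missed the threshold (95% interval -0.03 to 0.21, edgeR adjusted p = 0.233). It rose by 0.22 under the WT label (edgeR adjusted p = 0.00401) and stood at -0.14 under the TAZKo label (edgeR adjusted p = 0.0575), a difference of -0.36 (SE 0.0778, edgeR adjusted p = 0.0279).

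Of these 3 differences, that of Herpud1 kept its call in every alternative fit, between -1.03 and -0.84. Ero1l lost its call without TAZKo normoxia sample 2, WT hypoxia sample 3 or TAZKo hypoxia sample 3 (edgeR adjusted p = 0.0682, 0.065 and 0.0616). The count then fell from 3 to 1 gene, and that of all genes from 350 to 174, 177 and 200. Selenos lost its call in 10 of the 12 fits that left out a sample. Its rise with hypoxia under the WT label lost its call in 3 other settings and in 2 fits that left out a sample (edgeR adjusted p up to 0.251).

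The direction in which label and hypoxia moved the folding genes can also be read from all 4 groups together. In 8 of the 37 genes every WT normoxia sample lay above, and every TAZKo hypoxia sample below, all other samples: Hyou1, Calr, Dnajb11, Sdf2l1, Manf, Pdia4, Pdia5 and Pdia6. Over all 14408 tested genes, 3.75% had this order, against 21.6% of the 37. The pattern was chosen after the values were seen and was not tested. Sdf2l1 shows it plainly, with 60.1 to 61.8 CPM under the WT label and 38.5 to 40.4 under the TAZKo label in normoxia, and 37.3 to 41.6 and 27.1 to 31.3 after hypoxia. Pdia6 gave 530 to 565, 412 to 431, 340 to 372 and 288 to 308 CPM in the same order. Summed over the 12 folding factors, the level in that order was 6350 ± 176, 5328 ± 63.4, 6100 ± 34.4 and 5081 ± 40.8 CPM (SD, n = 3 each). Summed over the 8 disulfide enzymes it was 4081 ± 72, 3574 ± 21.3, 5714 ± 222 and 5168 ± 102 CPM, and of the 8 only P4hb, Ero1l and Dnajc10 rose with hypoxia under the WT label (edgeR).

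Several promoters of these genes share a motif, and it is shown here because the genes that carry it did not all move. The ER stress response element (ERSE) is the sequence through which ATF6, together with the factor NF-Y, acts on chaperone genes, and it was first described in part from promoters such as that of Hspa5, so its share among these genes is not independent of how they are known. RefSeq windows from 250 bases before to 50 bases after the annotated start (GRCm38.p6) were found for 34 of the 38 genes, not for Hyou1, Manf, Atf6 and Derl1. The full ERSE (CCAAT, then 9 free bases, then CCACG), searched on both strands, occurred in 10 of the 34 (29.4%), against 0.119% of all 32851 windows. The sites of the 9 tested genes are printed 5′ to 3′ on the strand that matches, with the fixed letters of the motif in capitals. Coordinates are those of RefSeq windows on GRCm38.p6, and + or - is the genome strand of the gene. Annotated starts differ between sources, and the GENCODE model of Hspa5 begins before its site.
Hspa5 (chr2:34772025-34772043, +): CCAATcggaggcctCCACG
Calr (chr8:84847075-84847093, -): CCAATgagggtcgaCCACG
Creld2 (chr15:88819520-88819538, +): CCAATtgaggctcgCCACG
Pdia6 (chr12:17266491-17266509, +): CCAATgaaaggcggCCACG
Ero1lb (chr13:12565682-12565700, +): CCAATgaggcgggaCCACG
Syvn1 (chr19:6046532-6046550, +): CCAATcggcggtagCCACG
Hsp90b1 (chr10:86705638-86705656, -): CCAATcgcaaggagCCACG
Hsp90b1 (chr10:86705533-86705551, -): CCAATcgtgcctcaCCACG
Canx (chr11:50325800-50325818, -): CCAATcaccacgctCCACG
Dnajc3 (chr14:118937827-118937845, +): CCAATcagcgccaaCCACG
The first 6 of these genes, Hspa5 to Syvn1, were lower under the TAZKo label in normoxia. Hsp90b1, with 2 sites, Canx and Dnajc3 carry the same fixed letters and missed the threshold there (edgeR). Over the 9 tested genes with the motif, 6 fell, with a median log2 difference of -0.37 (edgeR). Over the 24 tested genes with a window and no such match, 6 fell and 3 rose, with a median of 0.02, and 14.9% of 10269 other tested genes with a RefSeq window fell and 16.7% rose. By label in hypoxia, 5 of the 9 fell (median -0.25), 8 of the 24 fell and 1 rose (median -0.11), and 17.1% of the other genes fell and 16.9% rose, so the medians of the groups with and without the motif lay closer together than in normoxia. The 8 other tested genes of the RefSeq table that hold the letters gave 4 higher calls and a median of 0.18 in normoxia, and 3 higher and 2 lower calls in hypoxia. In hypoxia against normoxia under the WT label, 3 of the 9 fell and 1 rose, and 7 of the 24 fell and 7 rose. There 26.8% of the other genes fell and 26.4% rose. Under the TAZKo label 4 of the 9 fell and 0 rose (median -0.17), and 8 of the 24 fell and 5 rose (median -0.11). There 23.3% of the other genes fell and 22% rose. A match of letters is a description and not a binding site.

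A related element, ERSE-II (ATTGG, then 1 free base, then CCACG), occurred in Dnajb11 and Herpud1, 5.88% of the 34 genes, against 0.0365% of all windows. Herpud1 was also the only one of the 34 to hold TGATGCAA, a core to which ATF4 dimers bind (2.94% against 0.895% of all windows). TGATGAAA, a second form of that core, was in none (1.02% of all windows), nor was the XBP1-type element TGACGTGG (0.676%). The 5-letter element CCACG, contained in both ERSE forms, was in 85.3% of the 34 genes and 32.8% of all windows. The hypoxia response cores ACGTG and GCGTG were in 52.9% and 61.8% of the genes and in 19.6% and 32.4% of all windows. These short cores overlap the others: TGACGTGG holds ACGTG and, on the opposite strand, CCACG, and CCACGTG holds both. Promoters are printed for the genes whose results differ most in kind, as the 250 bases before the start on the gene's strand. Capitals mark ERSE-II and TGATGCAA (read on the opposite strand as TTGCATCA) in Herpud1, the hypoxia cores (read on the opposite strand as CACGC and CACGT) in P4hb, and ERSE, which lies on the opposite strand, in Creld2. The Herpud1 stretch also holds 1 match of each hypoxia core, not marked as such. GCGTG (read as CACGC) is in lower case, and ACGTG (read as CACGT) overlaps the end of the ERSE-II and shares its capitals.
Herpud1 (chr8:94386179-94386428, +): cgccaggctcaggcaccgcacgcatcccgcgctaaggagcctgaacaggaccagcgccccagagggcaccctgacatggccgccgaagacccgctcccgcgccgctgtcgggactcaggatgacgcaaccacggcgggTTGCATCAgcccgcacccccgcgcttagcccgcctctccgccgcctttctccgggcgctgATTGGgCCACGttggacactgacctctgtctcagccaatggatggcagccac
P4hb (chr11:120573254-120573503, -): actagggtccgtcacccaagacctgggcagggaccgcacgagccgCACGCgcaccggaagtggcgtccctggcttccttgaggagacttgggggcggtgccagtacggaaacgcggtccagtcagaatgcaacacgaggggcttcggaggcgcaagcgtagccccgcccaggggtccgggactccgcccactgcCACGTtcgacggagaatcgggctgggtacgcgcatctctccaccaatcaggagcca
Creld2 (chr15:88819396-88819645, +): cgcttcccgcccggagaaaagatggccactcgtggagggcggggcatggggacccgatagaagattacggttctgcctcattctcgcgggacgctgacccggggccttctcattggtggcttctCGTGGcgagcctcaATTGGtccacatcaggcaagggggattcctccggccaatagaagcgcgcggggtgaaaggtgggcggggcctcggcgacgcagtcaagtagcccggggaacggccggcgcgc
The Herpud1 stretch holds both an ERSE-II and the ATF4-type core, and Herpud1 rose by label in normoxia and by hypoxia under both labels. Dnajb11, the other gene with an ERSE-II, fell by label in normoxia (-0.32). It also fell by hypoxia under the WT label (-0.28) and the TAZKo label (-0.23). The P4hb stretch holds hypoxia cores and no ERSE. P4hb rose with hypoxia under both labels and was lower under the TAZKo label in both conditions. The Creld2 stretch belongs to a gene that fell by label in normoxia and by hypoxia. Ero1l, with the largest hypoxia rise, had 2 matches of GCGTG and 1 of ACGTG before its start. Among genes that fell with hypoxia, Pdia6 had 2 of GCGTG and 1 of ACGTG, and Calr had 1 of GCGTG and ACGTG on both strands at overlapping positions. Pdia4 and Creld2 also fell with hypoxia and held neither core in their windows. The part of these cores in the responses was not tested.

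**Figure D5:**
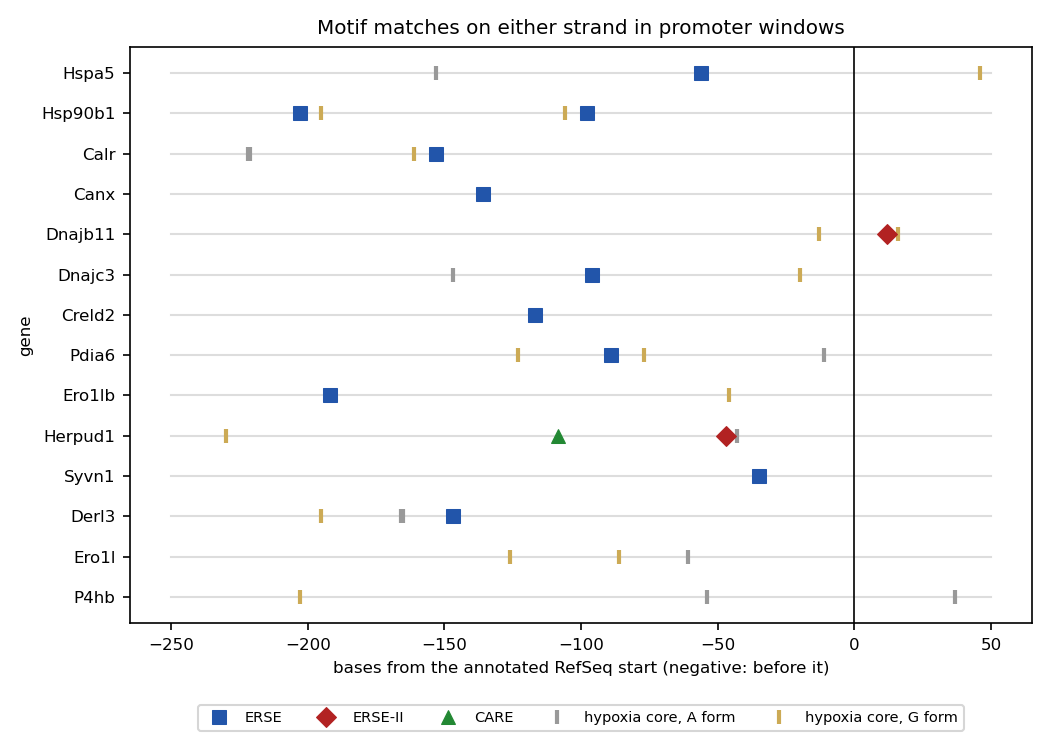
Position of motif matches on either strand (horizontal axis, bases from the annotated RefSeq start, negative before it) in 14 genes (vertical axis): those with an ERSE, ERSE-II or ATF4-type core (CARE), and Ero1l and P4hb. Squares are ERSE, diamonds ERSE-II, the triangle the ATF4-type core, and gray and yellow ticks the hypoxia cores ACGTG and GCGTG. All ERSE matches lie before the start, while the ERSE-II of Dnajb11 lies after it.

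Further genes of the same pathways were read from lists of 114 genes, of which 108 were tested, chosen with earlier results of these data known. In normoxia 25 were higher and 15 lower under the TAZKo label (edgeR), 37% of the 108 against 30.4% of all tested genes, and in hypoxia 24 and 17, 38% against 32.8%. The ATF4 branch held 11 of the 25 rises in normoxia among its 12 tested genes, with a median log2 difference of 1.1, where Trib3, a pseudokinase target of ATF4, rose by 2.37 (SE 0.123, edgeR adjusted p = 1.24e-08) and Chac1, a glutathione-degrading enzyme, by 1.92 (SE 0.116, edgeR adjusted p = 5e-08). Its 1 fall was Vldlr (-3.97, SE 0.348, edgeR adjusted p = 1.67e-06), a lipoprotein receptor. In hypoxia the same 12 gave 6 rises and 3 falls, with a median of 0.24. Other folding factors gave 5 rises and 4 falls of 29 tested in normoxia, and the other disulfide enzymes 3 and 2 of 16 (edgeR), 31% and 31.2% called, near the share of all tested genes. Among the largest differences, Qsox2, a sulfhydryl oxidase, rose by 0.57 (edgeR adjusted p = 2.33e-05) and Txndc12, a thioredoxin-like ER protein, by 0.39 (edgeR adjusted p = 0.000192), while Creb3l2, an ER-bound transcription factor, fell by 0.53 (edgeR adjusted p = 2.35e-05). Sec61a1, the pore subunit of the translocon, fell by 0.28 (edgeR adjusted p = 0.000982).

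Under hypoxia in the libraries labelled WT, 17 of the 29 other folding factors fell and 2 rose, and under the TAZKo label 20 fell (edgeR), with medians of -0.29 and -0.27, where 25% and 21.6% of all tested genes fell. Examples under the WT label were Cnpy3, a co-chaperone of Hsp90b1, at -0.89 (edgeR adjusted p = 2.26e-06) and Fkbp9, a prolyl isomerase, at -0.68 (edgeR adjusted p = 7.35e-07). The other ERAD genes gave 6 higher and 5 lower of 22 under the WT label (edgeR), 50% called, near the 51% of all tested genes. Of the 12 genes of the ATF4 branch, 11 rose under the WT label (median 2.09) and 8 rose and 1 fell under the TAZKo label (median 1.07). All 8 differences between the hypoxia responses among the 108 genes lay in that branch, and all were negative, with Trib3 at -1.79, Atf3 at -1.78 and Chac1 at -1.68 (edgeR adjusted p = 0.00016 for each). Eif2ak3, the PERK sensor, lies outside the rule for named genes and was chosen after its values were seen: it stood at -0.14 by label in normoxia (edgeR adjusted p = 0.224), fell by 0.38 by label in hypoxia (edgeR adjusted p = 0.00268), and rose by 0.32 with hypoxia under the WT label (edgeR adjusted p = 0.00458).

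Some of these counts could include reads of other genes. The kit does not mark strand, and exons of 10 of the 38 genes overlap another annotated gene: Hsp90b1, Dnajb9, Manf, Fkbp14, Pdia3, Pdia4, Pdia6, Syvn1, Derl2 and Serp1. Over 5% of the 50-base words of 6 genes also occur in another gene's transcripts, most in Sec61b (15.3%), Ero1lb (13.9%) and Hsp90b1 (10%), and Ero1lb, Derl1 and Dnajb9 share theirs with pseudogenes. Values of these genes are uncertain to that extent.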

How the data were processed

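The authors deposited read counts as whole numbers per Ensembl gene, in a table for each sample, and the build is mm10 per the submitters' processing notes. The aligner, counter and annotation are not given in the sources used here. RNA was isolated with Trizol and libraries were made with the TruSeq RNA v2 kit, per the labels' protocols. Of 48709 gene IDs, 48349 matched a symbol and 360 did not. Samples of a group were compared for repeated libraries, and none of these 12 pairs held a repeat (chi-square per gene of 2.82 to 41.6).

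Counts were filtered with filterByExpr (14408 genes left), scaled with TMM factors (trimmed mean of M values) and fitted over all 12 samples with the quasi-likelihood model of edgeR 4.0.16 (R 4.3.3), with 1 coefficient per group. Every adjusted p comes from its test with Benjamini-Hochberg adjustment over all tested genes, at a threshold of 0.05, unless DESeq2 is named. The difference between hypoxia responses is the TAZKo response minus the WT response. Standard errors are the log2 difference divided by the square root of F, and 95% intervals use 13.3 degrees of freedom. CPM are given as mean ± SD. Floors cover counting error only, since PCR copies could not be told from separate molecules. Lengths, positions and overlaps came from GENCODE M21 on GRCm38, and promoters from RefSeq on GRCm38.p6. The scripts were tested on simulated data.

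All 38 genes are named, with at most the 3 largest called differences per further list and comparison. Members, lists and tests were chosen with earlier results of these data known. The alternatives tried were 3 other scalings (size factors of DESeq2, upper quartile, library size alone), the test of DESeq2 1.42.0, other filters (none, or a mean CPM of 5 or more), a block for the replicate number, lane (from the names of the tables: 4 or 5) as a covariate, the 6 samples compared only, and leaving out each sample. A possible pairing was read from the replicate numbers in the titles. Deviations from group means of same-numbered samples correlated at 0.15 to 0.35 between WT and TAZKo normoxia. Between WT normoxia and WT hypoxia they correlated at 0.15 to 0.37. The highest of each, 0.35 and 0.37, belonged to sample 1. Samples 2 and 3 were not clearly told apart: WT normoxia sample 3 gave 0.18 with WT hypoxia sample 2 and 0.15 with sample 3. Whether the numbers pair samples is therefore not settled. Same-numbered samples gave -0.02 to 0.09 between TAZKo normoxia and hypoxia and -0.02 to 0.12 between WT and TAZKo hypoxia.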

Additional observations from a re-analysis of the deposited data

Results flagged for a closer look

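The hypoxia response differed between the labels in 3 genes by the edgeR test of the difference itself. The TAZKo response minus the WT response was -0.96 for Herpud1 (edgeR adjusted p = 0.000601), -0.67 for Ero1l (edgeR adjusted p = 0.0153) and -0.36 for Selenos (edgeR adjusted p = 0.0279). For Herpud1 and Ero1l all 3 TAZKo normoxia samples lay above all WT normoxia samples and the hypoxia samples overlapped, and for Selenos all 3 TAZKo hypoxia samples lay below all WT hypoxia samples.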

How the results depend on the processing

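Of 78 calls of single genes, none changed direction in any alternative; 19 of 699 values under other settings and 66 of 936 with a sample left out missed the threshold. Of 107 results that missed it, 39 values under other settings and 36 with a sample left out passed. Counts of the 37 genes called ran, over other settings and over fits without 1 sample, from 17 to 19 and 16 to 20 for label in normoxia, 17 to 20 and 15 to 21 for label in hypoxia, 17 to 23 and 17 to 23 for hypoxia under the WT label, 19 to 26 and 18 to 27 under the TAZKo label, and 2 to 3 and 1 to 4 for the difference between the responses. Calls kept in every fit numbered 16 of 18, 14 of 17, 16 of 21, 18 of 19 and 1 of 3 (Herpud1). Over the same fits, counts of all genes ran from 3314 to 5212 and 3349 to 4961 for label in normoxia. For label in hypoxia they ran from 3780 to 5537 and 3765 to 6149. With hypoxia they ran from 5909 to 8032 and 6510 to 7679 under the WT label. Under the TAZKo label they ran from 4988 to 7771 and 5367 to 7678. For the difference between the responses, the count of all genes went from 350 to 574 with DESeq2 and 727 without a filter. It was 639 with the replicate block and 174 to 711 with a sample left out.

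Under the replicate block, the members called numbered 19, 18, 22, 21 and 3 in the same order. The counts of all genes rose as well, from 4384, 4723, 7355, 6309 and 350 to 5212, 5518, 8032, 7010 and 639. Dnajc10 then passed by label in normoxia (0.23, edgeR adjusted p = 0.0304) and Dnajc3 with hypoxia under the WT label (-0.23, edgeR adjusted p = 0.0243). No other call changed in these comparisons. The block also made Dnajb9 pass by label in hypoxia and Canx and Selenos pass with hypoxia under the TAZKo label. Genes near the filter are limited by depth: Derl3, at 3 to 17 counts per sample, was left out by the filter and missed the threshold in the fit without it.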
